A study of Mus musculus with 6 samples.

Results

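Activated CD4+ T cells settle into effector or follicular helper fates under a small set of transcription factors, and 10 of these were followed here in T cells that lack ABAT, the transaminase that breaks down GABA. The 10 genes, Irf4, Irf8, Prdm1, Bcl6, Id2, Maf, Bhlhe40, Ikzf3, Tox and Ascl2, were taken by symbol from a table of 54525 genes, and all 10 were found in it. Naive CD4+ T cells were isolated from the lymph nodes and spleen of mice 6 to 8 weeks old of the C57BL/6N strain, and were activated for 36 h by plate-bound antibodies to CD3 and CD28 with IL-2, the TH0 condition, with no polarizing cytokine and no further treatment. RNA of 3 wild-type (WT) samples and 3 samples with a T cell-specific deletion of Abat (Abat cKO) was sequenced. In the Abat cKO line a floxed Abat allele, first crossed to a Flippase strain, is deleted by Cre under Cd4 control, which acts in developing T cells and so also in CD8+ and regulatory T cells. The study names C57BL/6 mice as WT without naming littermates, and it activated and harvested the cells of each genotype separately, so that genotype, mouse line and culture cannot be told apart.

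These factors work as opposed pairs and partners. BLIMP1, encoded by Prdm1, and BCL6 are zinc finger repressors that repress each other: BCL6 drives the follicular helper fate, and BLIMP1 opposes it and favours effector differentiation. IRF4 is induced by T cell receptor signalling in proportion to its strength and binds DNA together with BATF and JUN proteins, and IRF8 is its closest relative. ID2 carries no DNA-binding region and holds E proteins away from DNA, whereas ASCL2 is a basic helix-loop-helix activator of follicular helper genes.

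Libraries held 19566016 to 24396746 counts over genes, and counts are given as CPM, relative to library totals scaled by the trimmed mean of M values (TMM). Of the 10 genes, 9 passed the filter on low counts, as did 13605 genes in all, and they were tested with edgeR's quasi-likelihood test with p-values adjusted by Benjamini-Hochberg over all of these. Abat itself had 5, 1 and 0 counts in the WT samples and 7, 3 and 2 in Abat cKO. The ratio was 2.22 (95% exact interval 0.771 to 7.21, for counting error only), so the genotype labels could not be checked on so few counts. Which columns are WT and which are Abat cKO thus rests on their names alone, and exchanged names would turn every direction given here. In the study's source data for its expression heatmap, several genes looked opposite in direction to the counts used here. Which of the 2 carries the right labels was not settled. The cells carried T cell transcripts, with 12 T cell markers summing to 4252 to 4354 CPM in WT and 3877 to 4051 CPM in Abat cKO. Markers of other cells were low but differed. WT replicate 3 stood apart from the other WT samples, with CD8+ T cell markers (Cd8a and Cd8b1) at 7.50 CPM against 21.3 and 24.2 CPM, NK cell markers at 6.34 CPM against 21.9 and 25.6 CPM, and B cell markers other than Ighm at 14.4 CPM against 38.9 and 44.5 CPM. In Abat cKO the CD8+ markers summed to 5.62 to 6.49 CPM, the NK cell markers to 10.1 to 11.5 CPM and the B cell markers other than Ighm to 8.84 to 9.38 CPM. Of 12 T cell markers 1 rose and 7 fell, of 10 tested B cell markers 8 fell and 0 rose, and of 8 markers of naive T cells 1 rose and 4 fell. Both CD8+ markers fell, and of 5 tested NK cell markers 3 rose and 1, Eomes, fell. Eomes made up most of the NK cell sum in WT, at 19.0, 21.6 and 4.99 CPM, and was at 3.83, 4.50 and 4.47 CPM in Abat cKO. Of all genes tested 18.1% were higher and 13.4% lower. Markers of γδ T cells were at 2.71 to 4.73 CPM in WT and 8.95 to 9.47 CPM in Abat cKO, and all 3 that were tested rose. Those of regulatory T cells were at 1034 to 1132 CPM and 1414 to 1540 CPM, and 3 of 7 rose while 2 fell. Most of this sum was Il2ra, counted below among the effector genes too, at 716 to 814 CPM in WT and 1091 to 1190 CPM in Abat cKO. The part of these cells in the levels of the fate factors was not tested. In bulk RNA a change in the number of cells of a type and a change in RNA per cell cannot be told apart.

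The fate factors divided in Abat cKO T cells. Prdm1, Ikzf3, Bhlhe40 and Id2 rose, Tox fell, and Irf4, Irf8, Bcl6 and Maf did not pass the test. Thus 5 of 9 tested genes were called, against 31.5% of all genes tested, 4 of them higher (18.1% of all genes) and 1 lower (13.4%). The groups did not overlap for 7 of the 9, against 45.9% of all genes, with 5 higher (25.4%) and 2 lower (20.5%) in Abat cKO. The median log2 fold change was 0.28 for the 9 genes and 0.00 for all genes tested. These genes were chosen with earlier results of the same data known, so their share of calls describes them and is no test of the group.

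**Figure D1:**
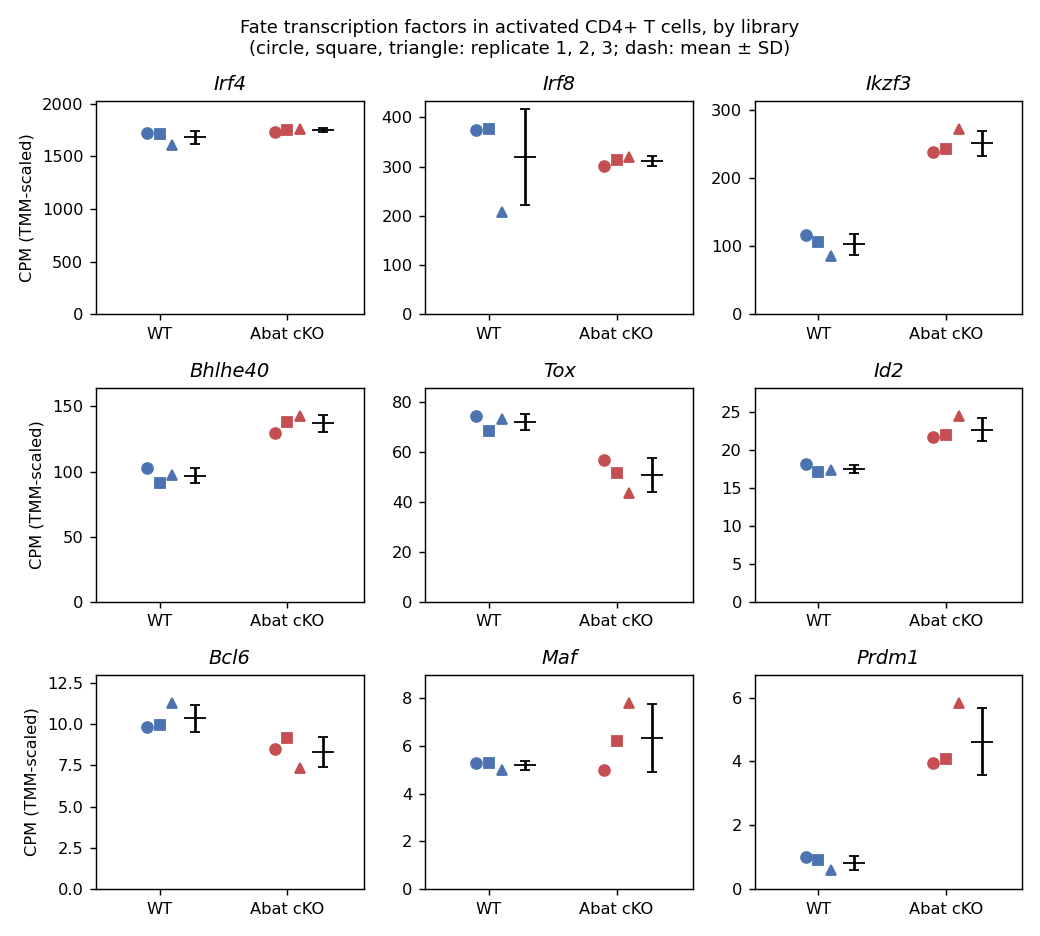
TMM-scaled CPM of the 9 tested fate factors in each of the 3 WT and 3 Abat cKO libraries, each panel starting at 0, with the mean and SD (n = 3) beside the points. Prdm1, Ikzf3, Bhlhe40 and Id2 lie higher and Tox lower in every Abat cKO library, while the WT library 3 of Irf8 lies at 208 CPM, below all other libraries.

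Prdm1 showed the largest change of these genes, from a low level. It had 22, 22 and 12 counts in the WT samples and 78, 88 and 112 in the Abat cKO samples, which corresponds to 0.993, 0.898 and 0.581 CPM and to 3.93, 4.08 and 5.83 CPM. The lowest Abat cKO sample was thus above the highest WT sample. Its mean level was 0.824 ± 0.216 CPM for WT and 4.61 ± 1.05 CPM for Abat cKO (SD, n = 3 each), and the fold change was 5.52 (95% interval 3.68 to 8.30; edgeR adjusted p = 6.7e-05). Only 0.867% of tested genes had as large an absolute log2 fold change. It was called in all 15 other settings of the analysis, at a log2 fold change from 2.25 to 2.61. By its average level over the 6 samples Prdm1 was among the low genes, with 76.4% of tested genes at least as high.

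Bcl6, the opposing repressor, moved the other way by a smaller step that lay at the threshold. It was at 9.84, 9.92 and 11.3 CPM in WT and at 8.47, 9.13 and 7.33 CPM in Abat cKO, without overlap between the groups. The fold change was 0.806 (95% interval 0.682 to 0.952), and the edgeR adjusted p of 0.051 did not pass. In 6 of 15 other settings it did pass, with adjusted p from 0.034 to 0.15 over all of them. Beside it, Bcl6b, its close relative, fell by 1.66 ± 0.35 (SE) on the log2 scale (edgeR adjusted p = 0.0047), from 1.35 to 2.18 CPM in WT to 0.303 to 0.649 CPM in Abat cKO.

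The ratio between both repressors does not depend on how libraries are scaled. Counts of Prdm1 over counts of Bcl6 were 0.101, 0.0905 and 0.0515 in the WT samples and 0.464, 0.447 and 0.794 in the Abat cKO samples. The mean ratio was 0.0810 ± 0.0261 (SD, n = 3) in WT and 0.568 ± 0.196 (SD, n = 3) in Abat cKO, which is 7.02 times as high. Every Abat cKO sample lay above every WT sample. It rests on the same counts as the fold changes above and was not tested apart.

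The sequence before the start of each gene is shown for this pair, whose ratio changed the most of 5 pairs of factors compared within libraries. The bases come from RefSeq on GRCm38.p6, which had 8 starts for 6 of the 10 genes, and each run is the 250 bases before 1 start (for Prdm1 a start inside the gene), read 5′ to 3′ on the minus strand, on which both genes lie. None of these bases lies in an exon of the GENCODE M21 annotation. Capitals mark TGANTCA in Prdm1, a loose form of the AP-1 element with any middle base. The AP-1 element, bound by BATF, JUN and FOS proteins, has C or G there, whereas the Prdm1 stretch has A. Capitals also mark CACGTG (the E-box form that BHLHE40 binds) in the first Bcl6 start. In the other Bcl6 start they mark TTCCNNGAA (the core of the BCL6 and STAT element).
Prdm1 (chr10:44458749-44458998): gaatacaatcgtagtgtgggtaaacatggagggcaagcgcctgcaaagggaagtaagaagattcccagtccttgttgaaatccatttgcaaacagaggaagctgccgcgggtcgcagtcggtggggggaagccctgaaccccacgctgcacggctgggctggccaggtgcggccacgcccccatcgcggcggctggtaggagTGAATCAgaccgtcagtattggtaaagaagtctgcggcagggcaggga
Bcl6, upstream start (chr16:23988853-23989102): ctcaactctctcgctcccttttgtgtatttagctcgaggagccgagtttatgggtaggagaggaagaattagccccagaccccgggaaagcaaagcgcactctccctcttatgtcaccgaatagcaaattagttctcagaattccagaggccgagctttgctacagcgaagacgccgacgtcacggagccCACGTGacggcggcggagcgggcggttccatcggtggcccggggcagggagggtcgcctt
Bcl6, internal start (chr16:23981284-23981533): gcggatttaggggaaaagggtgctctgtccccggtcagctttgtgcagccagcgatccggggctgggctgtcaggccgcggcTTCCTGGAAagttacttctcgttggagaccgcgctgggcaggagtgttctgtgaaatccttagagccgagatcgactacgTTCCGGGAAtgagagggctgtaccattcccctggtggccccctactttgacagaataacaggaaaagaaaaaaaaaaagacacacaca

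Read on both strands, TGANTCA occurred once before the Prdm1 start, 48 bases upstream, and before none of the other 7 starts. It was present in 6.75% of 32841 promoter windows of the same 250 bases. CACGTG, which is also a form of the wider E-box CANNTG, occurred once before the upstream Bcl6 start and is present in 6.02% of all windows. TTCCNNGAA occurred at 2 places before the internal Bcl6 start, 168 and 88 bases upstream, and once before an Irf8 start, against 4.06% of all windows with at least 1 match. The interferon response pattern, GAAA followed after 2 bases of any kind by a second GAAA, is present in 2.98% of windows and was in none of the 8. The wider E-box CANNTG is present in 66.2% of windows. These matches describe the letters only, and no binding was measured.

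Irf4 had the highest level per gene length of the fate factors and differed little between genotypes. It was at 1722, 1709 and 1609 CPM in WT and at 1735, 1756 and 1764 CPM in Abat cKO, so that the groups did not overlap. The fold change was 1.04 (95% interval 0.982 to 1.11), which did not pass (edgeR adjusted p = 0.28). Only 0.206% of tested genes were as highly expressed.

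Irf8 depended on 1 WT library. It was at 373, 377 and 208 CPM in WT and at 301, 313 and 320 CPM in Abat cKO. The Abat cKO samples lay close together, between the third WT library and the other WT libraries. Over all samples the fold change was 0.974 (95% interval 0.742 to 1.28; edgeR adjusted p = 0.90). Without WT replicate 3, Irf8 was lower in Abat cKO, at -0.28 ± 0.05 (SE) on the log2 scale (edgeR adjusted p = 0.0017), and without either of the other WT replicates the value turned to 0.09 or 0.10 and did not pass. WT replicate 3 was also the WT sample with the fewest B cell and CD8+ T cell transcripts, as given above. The Abat cKO samples had fewer still, at 8.84 to 9.38 CPM for B cell markers other than Ighm and 5.62 to 6.49 CPM for CD8+ markers. The part of these cells in the level of Irf8 was not tested. Dendritic cells and macrophages, which hold much Irf8, left few transcripts in any library, with 13 markers summing to 4.69 to 5.93 CPM and Clec9a at 0 counts in all 6 samples. The ratio of Irf4 to Irf8 counts was 4.61, 4.53 and 7.73 in WT and 5.76, 5.62 and 5.51 in Abat cKO.

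**Figure D2:**
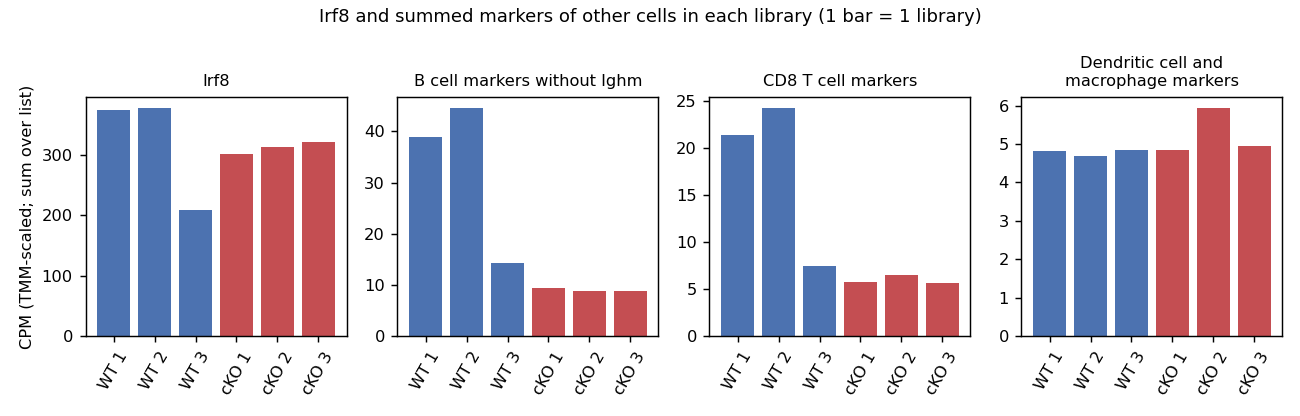
CPM of Irf8 and the summed CPM of 3 marker lists in each of the 6 libraries, 1 bar per library, axes starting at 0. WT library 3 is low in Irf8 (208 CPM), in B cell markers without Ighm (14.4 CPM) and in CD8+ T cell markers (7.50 CPM), and not in the dendritic cell and macrophage list.

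Of the other interferon regulatory factors described here, Irf7 and Irf9 fell. Irf7, which amplifies type I interferon, fell by 1.47 on the log2 scale (standard error 0.27, edgeR adjusted p = 0.0021), from 5.28, 5.80 and 2.86 CPM in WT to 1.56 to 1.86 CPM in Abat cKO, with WT replicate 3 again the lowest WT sample. Irf9, the DNA-binding part of the interferon-stimulated complex ISGF3, fell by 0.36 (edgeR adjusted p = 4.4e-04). Irf1, Irf2, Irf3 and Irf5 had log2 fold changes of -0.03, -0.13, -0.05 and 0.49 and did not pass. 

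Ikzf3 encodes Aiolos, an Ikaros family zinc finger protein that works with BCL6 in follicular helper cells and silences Il2 in mouse TH17 cells. It was at 116, 106 and 85.9 CPM in WT and at 238, 243 and 272 CPM in Abat cKO. The lowest Abat cKO library was thus far above the highest WT library. The fold change was 2.45 (95% interval 2.11 to 2.84; edgeR adjusted p = 4.9e-06), and only 3.75% of tested genes had as large an absolute log2 fold change. Aiolos is also abundant in B cells, whose markers other than Ighm summed to 14.4 to 44.5 CPM in WT and 8.84 to 9.38 CPM in Abat cKO, and their part in the level of Ikzf3 was not tested.

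Its relatives did not follow as a family. Ikzf1 (Ikaros itself) fell by 0.40 ± 0.04 (SE) on the log2 scale (edgeR adjusted p = 2.8e-05), from 815 to 855 CPM in WT to 629 to 636 CPM in Abat cKO. Ikzf2 (Helios, a marker of thymic regulatory T cells) rose by 0.94 (edgeR adjusted p = 0.0039), from 12.5, 11.6 and 6.15 CPM in WT to 18.7 to 19.8 CPM in Abat cKO. It is itself one of the regulatory T cell markers, and their part in these levels was not tested. Ikzf4 and Ikzf5 had log2 fold changes of -0.01 and 0.08 and did not pass. Counts of Ikzf3 over those of Ikzf1 went from 0.135, 0.127 and 0.105 in WT to 0.375, 0.382 and 0.432 in Abat cKO, so that the ratio of means was 3.23.

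Bhlhe40 encodes a helix-loop-helix repressor that sustains cytokine output of effector T cells and limits Il10 in mice. It was at 102, 91.1 and 97.0 CPM in WT and at 130, 138 and 143 CPM in Abat cKO. The groups were well apart, and the fold change was 1.41 (95% interval 1.30 to 1.54; edgeR adjusted p = 8.4e-05). Of 4 genes linked to this factor, 3 were tested, of which 2 rose and 0 fell, beside 18.1% higher and 13.4% lower of all genes. Ifng (1.12) and Il1rl1 (1.28) rose on the log2 scale, from levels that varied among the WT samples (2.47 to 14.1 CPM for Ifng), and Csf2 did not pass (0.06). The calls of Ifng and Il1rl1 were lost without Abat cKO replicate 2 and with DESeq2, and 1 gene of the list was called without WT replicate 1 or without Abat cKO replicate 3. Il10 was at 0.097 to 0.226 CPM in WT and 0.454 to 1.35 CPM in Abat cKO and was too low to be tested.

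Id2 rose by a small step. It was at 18.1, 17.0 and 17.4 CPM in WT and at 21.6, 21.9 and 24.4 CPM in Abat cKO, with no overlap. The fold change was 1.29 (95% interval 1.16 to 1.44; edgeR adjusted p = 0.0023). Id3, which holds E proteins in the same way and marks naive and follicular cells, was at 32.4 to 42.6 CPM in WT and 42.1 to 43.9 CPM in Abat cKO and did not pass (log2 fold change 0.23, edgeR adjusted p = 0.076). The ratio of Id2 to Id3 counts overlapped between the groups, at 0.407 to 0.525 in WT and 0.498 to 0.581 in Abat cKO. The E proteins themselves, Tcf3, Tcf12 and Tcf4, had log2 fold changes of -0.05, -0.05 and 0.02 and did not pass.

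Maf, a bZIP factor that drives Il21, Il4 and Il10, was variable in Abat cKO. It was at 5.28, 5.31 and 4.99 CPM in WT and at 4.99, 6.21 and 7.80 CPM in Abat cKO, where replicate 1 overlapped the WT range. The fold change of 1.22 did not pass (95% interval 0.949 to 1.56; edgeR adjusted p = 0.22). Without Abat cKO replicate 1 it passed, at a log2 fold change of 0.43 (edgeR adjusted p = 0.043), and without Abat cKO replicate 3 it was at 0.10 (edgeR adjusted p = 0.70). Of 8 genes that c-MAF is known to regulate, 6 were tested, of which 3 rose and 1 fell, beside 18.1% higher and 13.4% lower of all genes. Il21, the signature cytokine of follicular helper cells, went from 0.194 to 0.632 CPM in WT to 31.2 to 82.3 CPM in Abat cKO (log2 fold change 6.72, standard error 0.52), and Il4 rose by 3.11 and Icos by 0.21. Without WT replicate 3, or without Abat cKO replicate 1, 2 genes of this list were called lower.

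Tox, an HMG-box factor of CD4+ T cell development that is also induced in exhausted and follicular helper cells, was the one fate factor called lower. It was at 74.6, 68.4 and 73.2 CPM in WT and at 57.0, 51.7 and 43.6 CPM in Abat cKO, all below the lowest WT sample. The fold change was 0.705 (95% interval 0.620 to 0.802; edgeR adjusted p = 0.0012). Tox2, its relative in follicular helper cells, rose from a low level, from 0.542, 0.857 and 0.678 CPM to 2.17, 1.95 and 2.86 CPM, which is 1.73 ± 0.28 (SE) on the log2 scale (edgeR adjusted p = 0.0011). Counts of Tox over those of Tox2 thereby went from 138, 79.8 and 108 in WT to 26.3, 26.5 and 15.2 in Abat cKO. Tox4 did not pass (-0.10), and Tox3 was too low to be tested. Over all 19 tested relatives of the fate factors, 3 rose, 5 fell and 11 missed the threshold, beside 18.1% higher and 13.4% lower of all genes, and the median log2 fold change was -0.03. Mafg, a small MAF protein that lacks the activating region of c-MAF, rose by 0.35 (edgeR adjusted p = 5.6e-04).

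Ascl2 was hardly transcribed. It had 0, 2 and 2 counts in the WT samples and 0, 4 and 3 in the Abat cKO samples, which is too few for a test or a fold change. Cxcr5, the follicle-homing receptor that ASCL2 induces in mice, was at 3.61, 3.63 and 1.45 CPM in WT and 3.23, 3.52 and 3.80 CPM in Abat cKO and did not pass (log2 fold change 0.27, edgeR adjusted p = 0.54).

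**Figure D3:**
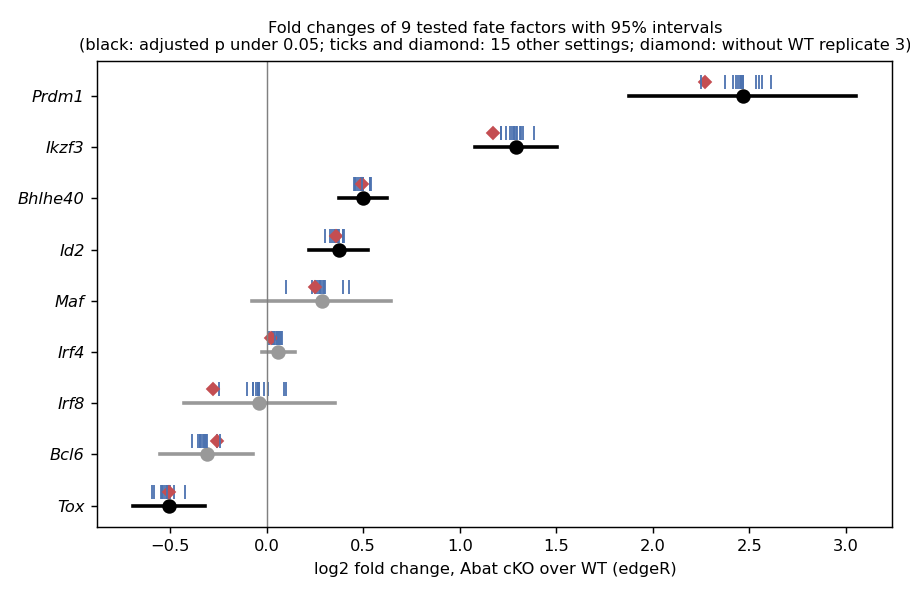
Log2 fold changes of the 9 tested fate factors in Abat cKO over WT with 95% intervals (points and bars, black where the edgeR adjusted p was under 0.05), with the values of 15 other settings as ticks and the value without WT replicate 3 as a diamond. The 5 called genes keep their side of 0 in each setting shown, and Irf8 moves to -0.28 without WT replicate 3.

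**Figure D4:**
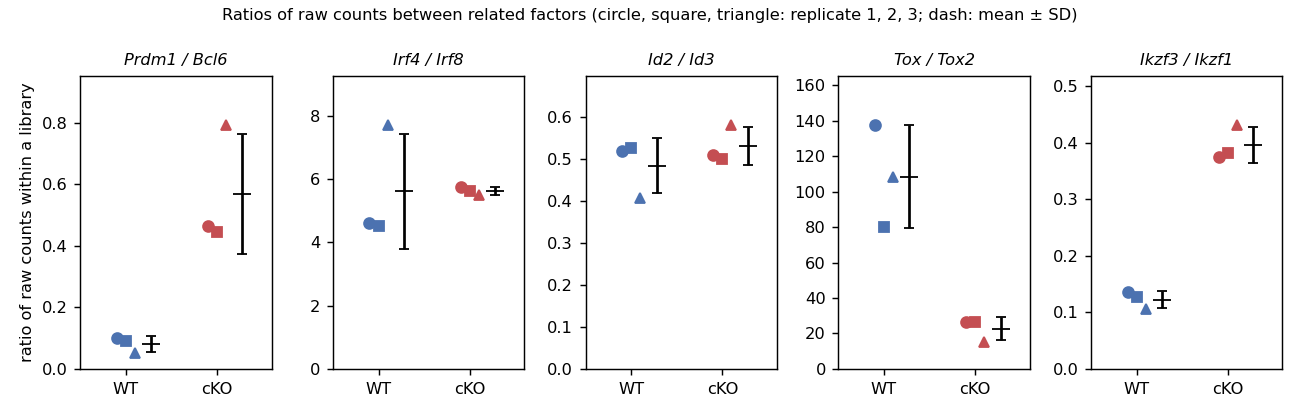
Ratios of raw counts within each library for 5 pairs of related factors, each panel starting at 0, with the mean and SD (n = 3). Prdm1 over Bcl6 and Ikzf3 over Ikzf1 are higher and Tox over Tox2 is lower in every Abat cKO library, while Irf4 over Irf8 and Id2 over Id3 overlap.

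To compare levels between genes, CPM were divided by gene length. In WT the order was Irf4 (353 CPM per kb), Irf8 (92.1), Bhlhe40 (31.1), Ikzf3 (22.2), Tox (18.2), Id2 (8.89), Bcl6 (2.63), Maf (0.816), Prdm1 (0.156) and Ascl2 (0.0371). Neighbours in this order were apart in all WT samples except Ikzf3 and Tox. In Abat cKO, Ikzf3 (54.5 CPM per kb) was above Bhlhe40 (44.0), with the 3 libraries of each apart. There Tox (12.8) and Id2 (11.5) overlapped, as did Maf (0.996) and Prdm1 (0.873).

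The genes whose profiles over the 6 libraries lay nearest to those of the most changed factors were found by the distance between log2 CPM centred on each gene's mean, among the 7597 (for Prdm1) or 7596 genes whose mean log2 CPM reached 4. Nearest to Prdm1 were Gata3, Jag2 and Ccr8, at distances of 0.46, 0.48 and 0.53 on the log2 scale. Nearest to Ikzf3 were Crybg1 (0.19), Glipr2 (0.21) and Batf (0.22), and nearest to Tox were Inpp5f (0.12), Tnik (0.16) and Cd84 (0.16). The distance is set mostly by the size of the difference between genotypes.

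Partners and cofactors of the fate factors moved in both directions. Of 23 tested, 6 rose, 7 fell and 10 missed the threshold, beside 18.1% higher and 13.4% lower of all genes, and their median log2 fold change was 0.02. Without WT replicate 1, or without Abat cKO replicate 2, 4 were called lower. Among the AP-1 proteins, some of which bind DNA with IRF4, 3 rose, 1 fell and 1 did not pass. Batf went from 19.7 to 25.8 CPM in WT to 52.1 to 58.0 CPM in Abat cKO (log2 fold change 1.22, standard error 0.09, edgeR adjusted p = 4.4e-06), Batf3 rose by 4.28 from at most 0.571 CPM, and Junb rose by 0.82. Jund fell by 0.19 and Jun did not pass (0.27). Runx3, a factor of TH1 and cytotoxic cells, rose by 0.93. Of the corepressors, Tle3 fell by 0.37 (edgeR adjusted p = 8.0e-05), while Ncor1 and Bcor, through which BCL6 represses, had log2 fold changes of 0.02 and -0.03 and did not pass.

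Follicular helper genes also split. Of 22 tested, 9 rose, 7 fell and 6 missed the threshold, beside 18.1% higher and 13.4% lower of all genes, and the median was 0.19. With scaling by spike-ins 5 rose. Beside Il21 and Il4, the costimulatory receptor gene Tnfrsf4 (OX40) rose by 1.14 (edgeR adjusted p = 3.2e-07) and Tnfsf8 (CD30 ligand) by 1.09 (edgeR adjusted p = 8.6e-07). Pdcd1, which encodes PD-1, fell by 1.08 (edgeR adjusted p = 6.6e-07), from 99.3 to 113 CPM in WT to 47.3 to 51.9 CPM in Abat cKO. Pou2af1, a coactivator best known in B cells, fell by 1.44 (edgeR adjusted p = 1.1e-06), from 60.8 to 77.3 CPM to 24.3 to 26.8 CPM. Ighm, the most abundant of the B cell markers, was at 241, 234 and 233 CPM in WT and 94.8 to 99.0 CPM in Abat cKO. The other B cell markers summed to 38.9, 44.5 and 14.4 CPM in WT and 8.84 to 9.38 CPM in Abat cKO. WT replicate 3 was thus the lowest WT sample in these, and it was the highest in Pou2af1 (60.8, 68.7 and 77.3 CPM in WT). The part of B cells in the level of Pou2af1 was not tested.

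Effector genes moved in both directions too. Of 23 tested, 10 rose, 6 fell and 7 missed the threshold, beside 18.1% higher and 13.4% lower of all genes, and the median was 0.43. Gata3, the master regulator of TH2 cells, went from 17.5 to 21.5 CPM in WT to 89.2 to 111 CPM in Abat cKO (log2 fold change 2.40, standard error 0.09, edgeR adjusted p = 8.0e-08), and the inhibitory receptor gene Lag3 rose by 0.97. Fasl, the death ligand, fell by 2.54, and Ccl4 by 1.27. Tbx21, the master regulator of TH1 cells, was at 123, 129 and 52.8 CPM in WT and 116, 125 and 122 CPM in Abat cKO and did not pass (edgeR adjusted p = 0.49), with WT replicate 3 low as for Irf8. The lists of follicular helper and effector genes shared 0 genes.

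Genes that BCL6 or BLIMP1 are known to repress were called in both directions, 66.7% of the former and 38.5% of the latter, beside 31.5% of all genes tested. Of 18 genes repressed by BCL6, Prdm1 and Id2 included, 7 rose, 5 fell and 6 missed the threshold (median 0.20). Gata3, Runx3 and Prdm1 were among the higher and Fasl among the lower. Of 13 genes repressed by BLIMP1, Bcl6 included, 3 rose, 2 fell and 8 missed the threshold (median 0.20). Il2 went from 15.7 to 19.5 CPM in WT to 48.1 to 53.4 CPM in Abat cKO (log2 fold change 1.53, standard error 0.08, edgeR adjusted p = 3.9e-07). Ccr7 and Ciita fell by 0.28 and 1.16. Without Abat cKO replicate 1, 5 genes of this list were called higher and 1 lower, and 1 was lower also without WT replicate 1, WT replicate 2 or Abat cKO replicate 3. Tcf7 and Lef1, which sustain the follicular helper program upstream of BCL6, had log2 fold changes of -0.02 and 0.08 and did not pass.

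**Figure D5:**
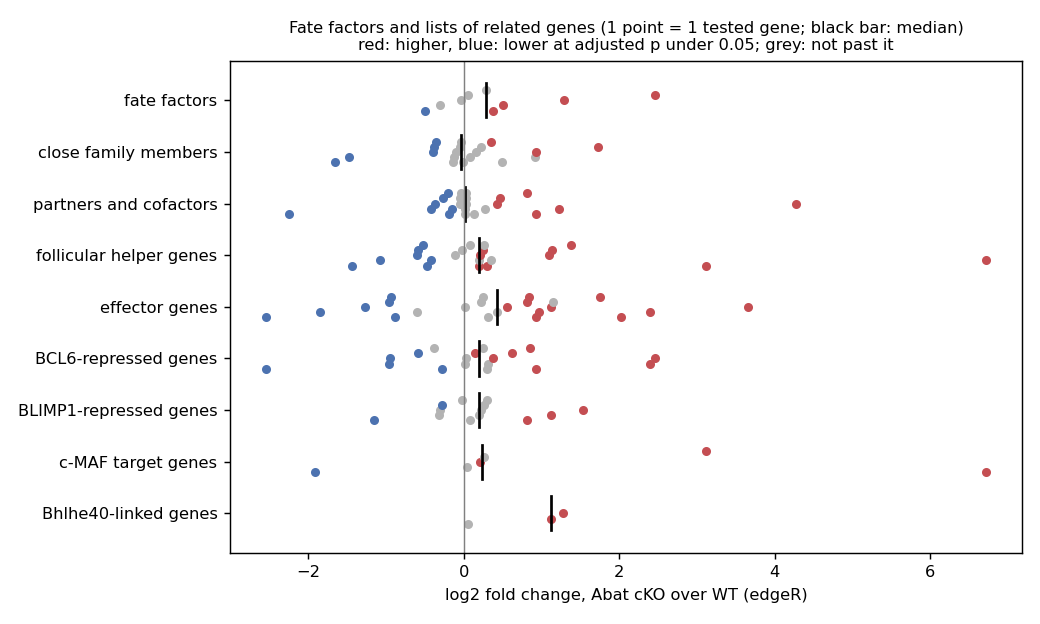
Log2 fold changes of every tested gene of the fate factors and of 8 lists of related genes, 1 point per gene, with the list's median as a black bar. Called genes lie on both sides of 0 in each list except the genes linked to Bhlhe40. Of the 3 tested genes of that list 2 were higher and 0 lower, beside 18.1% higher and 13.4% lower of all genes tested.

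Neighbouring genes left few reads. Exons of Bcl6, Maf, Bhlhe40 and Tox each overlap those of 1 other annotated gene on the other strand, and these neighbours had at most 6 counts in any library. Whether the counting used strand is not given in the sources used here. In GRCm38, Prdm1 spans chr10:44437177-44528501, Bcl6 chr16:23965052-23988852, Ikzf3 chr11:98464902-98546031 and Tox chr4:6686353-6991557, all on the minus strand.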

How the data were processed

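Total RNA of 3 WT and 3 Abat cKO samples was depleted of ribosomal RNA and sequenced. The authors deposited raw counts per gene. They also deposited a signal, counts divided by a size factor per sample, which was checked against the raw counts for the 9 factors that have one (0 differed by more than 0.1%) and not used. Group means, fold changes and adjusted p-values of the authors in the same table were not used either. The study's methods give TopHat2 with HTSeq on GRCm38, and the submitters' processing notes STAR 2.7 and RSEM 1.31, so which made the counts is not settled. The 92 spike-in controls (0.817% to 1.00% of counts) were left out of the gene totals.

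Counts were analysed in R 4.3.3 with edgeR 4.0.16 (TMM, filterByExpr, quasi-likelihood test on genotype alone, Benjamini-Hochberg adjustment, threshold 0.05). Intervals are the log2 estimate plus and minus its standard error times the t quantile of the fit. The test was checked on simulated data. The fit was repeated with other scalings (DESeq2 size factors, library size, spike-ins), filters, samples and a replicate block, and with DESeq2 1.42.0. The study calls its samples independent biological samples. The factors and all lists were chosen with earlier results of these data known. Genes named by rule were the 10 factors, Abat, up to 4 called genes of each list by smallest adjusted p with 1 called the other way, the paired genes and the nearest profiles. All other genes named were chosen after their values were seen. Some genes that the rule names are not reported here.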

Additional observations from a re-analysis of the deposited data

How the results depend on the processing

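Over 15 other settings Prdm1, Ikzf3, Bhlhe40, Id2 and Tox kept their direction and their call. The count of the fate factors called lower went from 1 to 2 with DESeq2 size factors, library size alone, no filter, at least 10 counts in every sample, protein-coding genes alone, or WT replicate 3 and Abat cKO replicate 1 left out together, and ran from 1 to 2 with single samples left out, the added gene being Bcl6 or, without WT replicate 3, Irf8. The log2 fold change of Irf8 ran from -0.28 to 0.10 with single samples left out. Correlations between same-numbered samples were -0.28, 0.03 and -0.27. They were taken after centring each gene within each genotype of 3 samples, which ties them to each other. They cannot show whether the samples were paired. With a replicate block Irf8 was at 0.0090 and 1 gene linked to Bhlhe40 was higher. With spike-in scaling 1339 genes were higher and 1185 lower (against 2464 and 1827), with 5 follicular helper genes and 1 gene linked to Bhlhe40 higher and 4 partners lower. With the DESeq2 test 0 genes linked to Bhlhe40 were higher and 1 gene repressed by BLIMP1 was lower. With no filter 5 relatives and 6 genes repressed by BLIMP1 were higher and 2 c-MAF targets lower, and with at least 10 counts 1 c-MAF target and 1 gene linked to Bhlhe40 were higher. With both samples left out 5 relatives, 6 genes repressed by BLIMP1 and 5 c-MAF targets were higher, and 8 relatives and 2 c-MAF targets lower. With single samples left out, genes repressed by BLIMP1 ran from 2 to 5 higher and 1 to 2 lower, partners from 4 to 7 lower, c-MAF targets from 1 to 2 lower and genes linked to Bhlhe40 from 0 to 3 higher. The causes were not tested. Of 300 alternative counts of calls, 262 stayed within 1.5 times the reported one. Depth limits Ascl2 (at most 4 counts) and Prdm1 (12 to 22 counts in WT).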
